A study of Mus musculus with 6 samples.

Results

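The genes described here are 10 markers of type I alveolar (AT1) cells, Ager, Hopx, Pdpn, Aqp5, Cav1, Emp2, Rtkn2, Clic5, Spock2 and Igfbp2. They were taken by symbol from a table of raw counts for 52550 genes, in which all 10 had a row, and all 10 passed the filter on low counts that left 18849 genes for testing. RNA was sequenced from mouse lung cells labelled alveolar epithelial type II (AT2), from C57BL/6 animals, after dispase digestion and magnetic sorting for CD45-negative, EPCAM-positive cells. Every mouse had CreERT2, a Cre recombinase that tamoxifen switches on, at 1 allele of Sftpc, the surfactant protein C gene expressed by AT2 cells, and floxed alleles of Grp78, the endoplasmic reticulum chaperone gene also named Hspa5. The genotype label reads without tamoxifen for the 3 control libraries and with tamoxifen for the 3 libraries labelled Grp78KO, so tamoxifen and the deletion cannot be told apart. A second label gives all 6 libraries, controls included, as 10 days after tamoxifen, at odds with their genotype label. Nothing in the labels says that the libraries of a group came from separate animals, and the p-values then measure only the spread between these libraries, which may be technical.

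AT1 cells are the thin, flat cells that cover most of the alveolar surface and across which gas is exchanged. AT2 cells make surfactant and can also divide and give rise to AT1 cells, passing through a transitional state rich in keratins. The markers belong to different parts of AT1 biology: a membrane receptor and a membrane mucin, a water channel, caveolae and membrane scaffolds, a homeodomain-like regulator, and secreted proteins. None is restricted to AT1 cells across the body. Pdpn is also made by lymphatic endothelium and mesothelium, and Cav1 by endothelium and fibroblasts.

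Library totals ranged from 110770711 to 149520306 counts. Hspa5 was at 925 to 1355 CPM (counts scaled to the library total times its TMM factor, which evens out composition between libraries) in controls and 3809 to 9262 in the libraries labelled Grp78KO (log2 fold 2.64 with SE 0.361, edgeR adjusted p = 0.00208). Counts per gene cannot show whether the floxed exons of Hspa5 were lost, so all directions given compare libraries by their labels. Surfactant RNA was high, with Sftpc at 43706 to 54845 CPM in controls and 14460 to 18606 in the libraries labelled Grp78KO. Airway RNA was abundant as well. Scgb1a1, the secretoglobin gene of club cells, stood at 26136 to 48330 CPM in controls and 26914 to 30127 in the libraries labelled Grp78KO. Per kilobase of exon its mean was 179% of that of Sftpc in controls and 380% in the libraries labelled Grp78KO.

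The 10 AT1 markers did not move as a group. Ager, Aqp5, Clic5 and Rtkn2 fell, Pdpn and Spock2 rose, and Hopx, Cav1, Emp2 and Igfbp2 did not pass the test, which was on group alone. A gene was called at a Benjamini-Hochberg adjusted p under 0.05 over all tested genes. In the same test 36.8% of all tested genes were called, 18.0% higher and 18.8% lower, against 2 markers higher and 4 lower. The median log2 fold of the markers was 0.11, beside 0.02 for all tested genes. The groups did not overlap for 7 markers, 3 of them higher and 4 lower in the libraries labelled Grp78KO. Among all tested genes the groups did not overlap for 51.6%, 25.0% higher and 26.6% lower. With the replicate number as a block, 4 markers were higher and 4 lower, Hopx and Cav1 being added, where 21.9% of all genes were higher and 22.8% lower. Without both libraries numbered 3, 5 markers were higher and 4 lower, where 28.3% and 27.7% of all genes were. In bulk RNA of this kind, fewer cells of a type and less RNA per cell cannot be told apart.

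**Figure D1:**
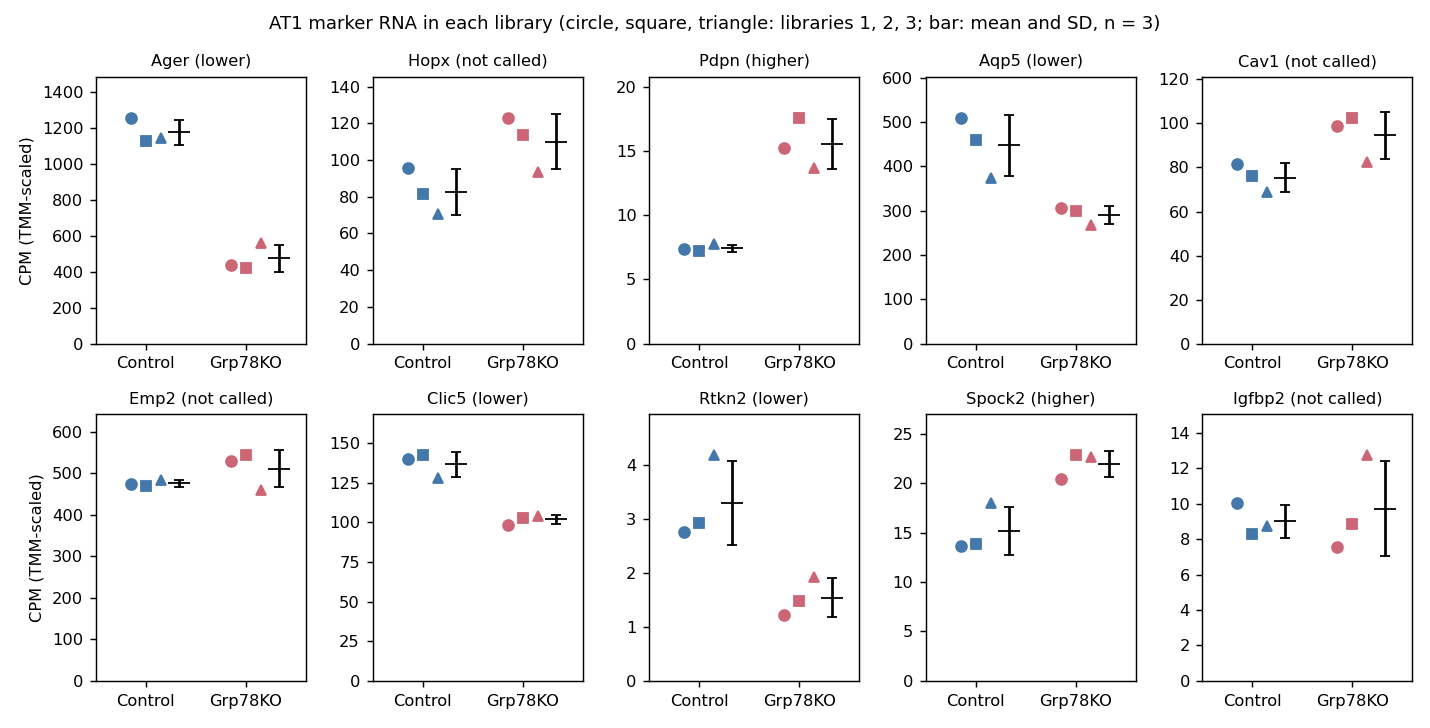
Normalised CPM (vertical axes, from 0) of the 10 AT1 markers in 3 control and 3 Grp78KO libraries, with circles, squares and triangles for libraries 1, 2 and 3 and a bar for the mean and SD of each group. Ager, Aqp5, Clic5 and Rtkn2 lie lower without overlap in the Grp78KO libraries, Pdpn and Spock2 lie higher without overlap, and the groups of Hopx, Emp2 and Igfbp2 overlap.

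The mean control levels of the markers lay between percentile 37.7 (Rtkn2) and percentile 99.6 (Ager) of all tested genes in CPM. On the scale of CPM per kilobase of exon (GENCODE M21 exons), Ager had the highest mean level among them, 550 ± 32.5 in controls and 222 ± 35.4 in the libraries labelled Grp78KO (SD, n = 3 per group). That was 1.17% of the level of Sftpc in controls and 1.42% in the libraries labelled Grp78KO. In controls Aqp5 followed at 172 ± 26.6 CPM per kilobase, then Emp2 at 55.0 ± 0.885 and Hopx at 54.5 ± 8.23, whose library ranges overlapped. Cav1 at 21.9 ± 1.86 and Clic5 at 15.6 ± 0.903 CPM per kilobase came next. Igfbp2, Pdpn and Spock2 were at 4.88 ± 0.497, 4.09 ± 0.155 and 2.74 ± 0.444 CPM per kilobase, and Rtkn2 was lowest at 0.593 ± 0.14. Emp2 and Hopx were the only neighbours in this order whose control libraries overlapped. In the libraries labelled Grp78KO the order of Emp2 and Hopx was exchanged, again with overlap, and Pdpn, at 8.56 ± 1.08 CPM per kilobase, stood above Igfbp2, at 5.26 ± 1.46. There the ranges of Igfbp2 and Spock2 also overlapped.

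**Figure D2:**
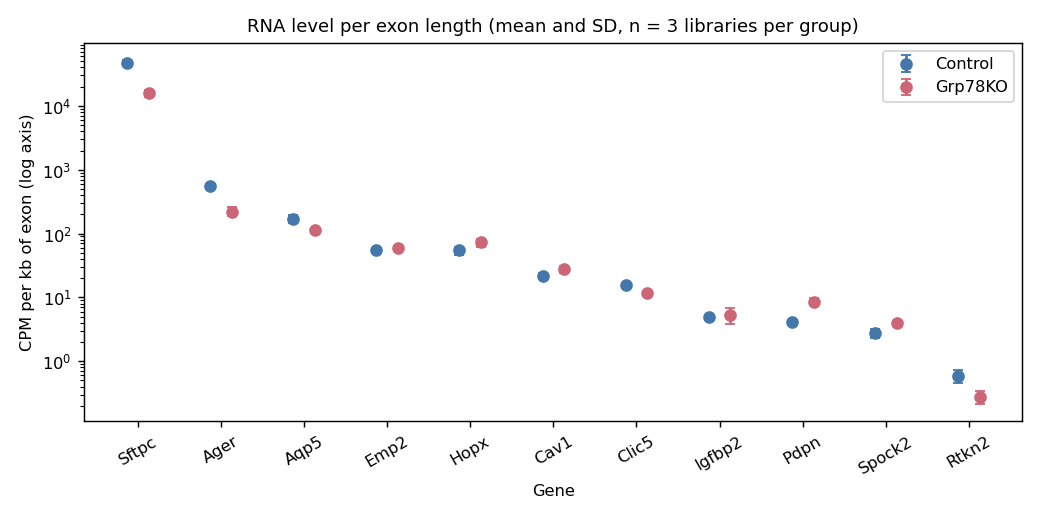
Mean CPM per kilobase of exon (vertical log axis) with SD over 3 libraries, for Sftpc and the 10 AT1 markers, in controls (blue) and Grp78KO libraries (red). Levels run from 550 for Ager to 0.593 for Rtkn2 in controls, and Sftpc lies far above all 10 markers in both groups.

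Ager encodes RAGE, a receptor of the immunoglobulin superfamily that is densely displayed on the basal membrane of AT1 cells. The gene lies on chromosome 17, 34597862 to 34600936, plus strand (GRCm38, the mm10 build), with 13 annotated transcripts. Controls 1, 2 and 3 held 1257, 1129 and 1146 CPM, TMM-scaled. Libraries 1, 2 and 3 labelled Grp78KO held 439, 423 and 562 CPM. Every control was above every library labelled Grp78KO, and library 3 labelled Grp78KO was the nearest to the controls. Ager fell 2.48-fold (log2 fold -1.31 with SE 0.148, edgeR adjusted p = 0.00108), a size close to the median log2 fold of -1.28 over 12 AT2 markers. All 12 were called lower, where 18.8% of all tested genes were. The call of Ager held under each of 15 alternatives, with log2 folds from -1.46 to -1.05.

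Pdpn encodes podoplanin, also known as T1-alpha, a small mucin-type glycoprotein of the AT1 apical membrane that binds ezrin and moesin in the cell and the platelet receptor CLEC-2 outside it. It lies on chromosome 4, 143267431 to 143299564, minus strand. Controls 1, 2 and 3 gave 7.34, 7.22 and 7.76 CPM. The libraries labelled Grp78KO gave 15.3, 17.6 and 13.7 CPM. The groups were well apart and the controls nearly equal. Pdpn rose 2.09-fold (log2 fold 1.06 with SE 0.117, edgeR adjusted p = 0.000994), and the call held under each of 15 alternatives, with log2 folds from 0.96 to 1.31. Markers of mesothelium and lymphatic endothelium, which also make podoplanin, were measured beside it. The sort for EPCAM, an epithelial surface protein, selects against endothelial cells. Of 8 mesothelial markers 6 were called higher and none lower (none lower either with limma-voom, DESeq2 or at an unadjusted p under 0.05), against 18.0% and 18.8% of all tested genes. They were 5 higher with limma-voom (17.3% of all genes) and with the 5 CPM filter (23.3%). They were also 5 higher without any 1 of the controls or of libraries 1 and 2 labelled Grp78KO (8.67% to 14.1%). Their summed level was 133 to 149 CPM in controls and 231 to 267 CPM in the libraries labelled Grp78KO. Msln, the mesothelin gene, rose from 33.3 ± 2.59 to 69.7 ± 5.22 CPM (SD, n = 3; log2 fold 1.07 with SE 0.0976, edgeR adjusted p = 0.000644). Of 6 lymphatic endothelial markers 5 were called higher and none lower, against the same shares of all tested genes. They were 3 higher without control 1, 2 or 3 or library 2 labelled Grp78KO (8.67% to 14.1% of all genes). Without the filter on low counts they were also 3 higher (10.5%). Their summed level was 63.9 to 75.1 CPM in controls and 103 to 115 CPM in the libraries labelled Grp78KO. Among these Flt4, a lymphatic growth factor receptor gene, rose by a log2 fold of 0.60 and Reln, the reelin gene, by 0.95. No marker of either list was at 0 in all libraries. Of 12 fibroblast and smooth muscle markers, given with Cav1 below, 11 were called higher, against the same 18.0%. They summed to 223 to 576 CPM in controls and 1203 to 1323 CPM in the libraries labelled Grp78KO. The part of any of these cells in the rise of Pdpn was not tested.

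The ratio of Ager to Pdpn within a library does not depend on scaling, and is given as a description, since the pair was taken for its largest fall and rise. There were 171, 156 and 148 Ager counts for each Pdpn count in controls 1, 2 and 3, and 28.7, 24.0 and 40.9 in libraries 1, 2 and 3 labelled Grp78KO. The log2 ratio of Pdpn to Ager was -7.31 ± 0.107 in controls and -4.93 ± 0.391 in the libraries labelled Grp78KO (SD, n = 3). The difference was 2.38, a 5.20-fold change of the ratio.

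The sequence before the start of transcription is given for 3 called markers, Ager and Clic5 among those that fell and Pdpn among those that rose, chosen because Ager and Pdpn had the largest fall and rise and Clic5 the tightest fall. Each is the 250 bases before the RefSeq start (GRCm38.p6), 5′ to 3′ on the gene's strand. Capitals mark a match to any of the motifs searched.
Ager, chr17:34597600-34597849, plus strand: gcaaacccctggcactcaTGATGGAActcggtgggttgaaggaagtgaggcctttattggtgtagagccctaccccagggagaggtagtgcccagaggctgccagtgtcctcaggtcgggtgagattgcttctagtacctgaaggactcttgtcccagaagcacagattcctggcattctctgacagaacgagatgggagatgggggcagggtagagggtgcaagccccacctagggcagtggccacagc
Clic5, chr17:44188322-44188571, plus strand: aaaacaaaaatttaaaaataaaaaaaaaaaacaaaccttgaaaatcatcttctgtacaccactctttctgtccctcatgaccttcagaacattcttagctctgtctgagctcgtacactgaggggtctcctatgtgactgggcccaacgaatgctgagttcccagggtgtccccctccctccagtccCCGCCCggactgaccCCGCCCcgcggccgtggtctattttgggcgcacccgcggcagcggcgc
Pdpn, chr4:143299565-143299814, minus strand: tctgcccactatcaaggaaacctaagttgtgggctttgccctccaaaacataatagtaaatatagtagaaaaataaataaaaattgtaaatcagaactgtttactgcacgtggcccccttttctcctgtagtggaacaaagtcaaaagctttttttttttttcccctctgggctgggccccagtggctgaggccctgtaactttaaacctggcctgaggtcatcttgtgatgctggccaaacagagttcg
The stretch of Pdpn held 43.2% G and C, against 57.6% for Ager and 52.8% for Clic5. RefSeq start sites were found for 9 of the 10 markers, 12 promoters in all, and searched on both strands from 250 bases before to 50 after the start. The TEAD core GGAATG was in none of them and in 14.7% of all 32851 mouse promoters of this length. The NKX2-1 core CAAGTG was in those of Hopx and Spock2 (13.6% of all promoters), and the AP-1 site TGANTCA in that of Igfbp2 (7.81%). The ATF4 element TGATGNAA was in the promoter of Ager alone among the markers (3.97% of all promoters), where it begins 232 bases before the start. The ER stress element, ERSE, was in none of the 12 promoters and in 0.119% of all, among them that of Hspa5, where it begins 65 bases before the start. The GC box GGGCGG was in the promoters of 6 markers, Aqp5, Cav1, Clic5, Emp2, Igfbp2 and Pdpn (35.7% of all promoters), 2 times before the start in Clic5. Markers are counted here as genes, some with several promoters, while the shares of all count single promoters. The letters TATAAA were in a promoter of Cav1 (13.6% of all). These matches describe letters in the window and name no bound factor.

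Aqp5 encodes aquaporin 5, the water channel of the AT1 apical membrane, and lies on chromosome 15, 99590782 to 99594829, plus strand. Its CPM was 510, 459 and 373 in controls and 306, 299 and 267 in the libraries labelled Grp78KO. The groups did not overlap, and within each group library 3 was the lowest. Aqp5 fell 1.54-fold (log2 fold -0.62 with SE 0.141, edgeR adjusted p = 0.0131). The call ended without control 2 (log2 fold -0.61, adjusted p = 0.0572). The low control 3 was also the control with the least airway RNA: the summed level of 10 airway markers was 57010, 54210 and 31150 CPM in controls 1, 2 and 3. In the libraries labelled Grp78KO they summed to 33900, 35990 and 32500 CPM. With all 6 libraries and the reported scaling none of these airway markers was called in edgeR, limma-voom or DESeq2, and none had an unadjusted p under 0.05 in edgeR. With library-size scaling 1 was called higher (33.0% of all genes), and without both libraries numbered 3, 6 were called lower (27.7% of all genes). Without control 3, 4 were called lower (16.2% of all genes), and Aqp5 then had a log2 fold of -0.74. The part of airway RNA in the values of Aqp5 was not tested.

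Clic5, a chloride intracellular channel family gene whose product sits with ezrin at the apical membrane, lies on chromosome 17, 44188584 to 44280172, plus strand. It stood at 140, 142 and 128 CPM in controls 1, 2 and 3. In the libraries labelled Grp78KO it was at 98.3, 103 and 104 CPM. This was the smallest of the called changes and among the tightest, with every library labelled Grp78KO below every control. Clic5 fell 1.34-fold (log2 fold -0.43 with SE 0.0866, edgeR adjusted p = 0.00878). With scaling by library size alone its log2 fold was -0.17 (adjusted p = 0.161), where the median of all genes moved to 0.27, so that Clic5 stayed below the median gene.

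Rtkn2 encodes rhotekin 2 and lies on chromosome 10, 67979570 to 68059740, plus strand. It was the least abundant marker, with raw counts of 315, 395 and 546 in controls and 166, 175 and 272 in the libraries labelled Grp78KO. These correspond to 2.76, 2.92 and 4.18 CPM in controls and to 1.22, 1.47 and 1.93 CPM in the libraries labelled Grp78KO. Library 3 was the highest of each group, and the groups did not overlap. Rtkn2 fell 2.13-fold (log2 fold -1.09 with SE 0.248, edgeR adjusted p = 0.0129). The call ended without library 2 labelled Grp78KO (log2 fold -1.06, adjusted p = 0.053) and with library-size scaling (log2 fold -0.84, adjusted p = 0.0545).

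Spock2 encodes testican-2, a secreted proteoglycan of the extracellular matrix, and lies on chromosome 10, 60106219 to 60135198, plus strand. It stood at 13.7, 13.8 and 18.0 CPM in controls and 20.4, 22.8 and 22.6 CPM in the libraries labelled Grp78KO. Control 3 was the nearest of the controls to the other group, with no overlap. Spock2 rose 1.45-fold (log2 fold 0.53 with SE 0.128, edgeR adjusted p = 0.0161). The call ended without control 1, control 2 or library 2 labelled Grp78KO (adjusted p = 0.0578, 0.0769 and 0.0627), with log2 folds of 0.45, 0.46 and 0.51.

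Hopx and Cav1 lay just outside the threshold. Hopx encodes a small homeodomain-like protein that does not bind DNA itself, and is used to trace AT1 cells and their precursors. It lies on chromosome 5, 77086988 to 77115121, minus strand. Its CPM was 95.5, 81.7 and 70.6 in controls and 123, 113 and 93.6 in the libraries labelled Grp78KO. Library 3 was the lowest of each group, and library 3 labelled Grp78KO fell below control 1. The log2 fold was 0.41 (95% interval 0.08 to 0.75, edgeR adjusted p = 0.0567), and with the replicate block it was 0.42 (adjusted p = 0.00466). Hopx was called higher under 9 of 15 alternatives, among them DESeq2 (adjusted p = 0.0193) and edgeR with upper-quartile factors (adjusted p = 0.0301). It was not called with limma-voom, without the filter on low counts, or without control 2, control 3 or library 1 or 2 labelled Grp78KO. Hopxos, an antisense gene, shares 412 bases of exon with Hopx and cannot be told apart there without strand. It stood at 0.324 to 0.831 CPM, far below Hopx.

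Cav1 encodes caveolin 1, the coat protein of caveolae, which are dense in AT1 cells, and lies on chromosome 6, 17306335 to 17341452, plus strand. It was at 81.6, 76.0 and 68.8 CPM in controls and 98.8, 103 and 82.4 CPM in the libraries labelled Grp78KO. The groups did not overlap, but library 3 labelled Grp78KO lay barely above control 1. The log2 fold was 0.33 (95% interval 0.06 to 0.59, edgeR adjusted p = 0.0566), against 0.32 under the replicate block (adjusted p = 0.0128) and 0.42 without library 3 labelled Grp78KO (adjusted p = 0.0105). Cav1 was called higher under 8 of 15 alternatives, but not with limma-voom, without the filter on low counts or without any 1 of the other 5 libraries. Endothelial and stromal RNA was measured beside it, from cells that the EPCAM sort selects against. The 12 endothelial markers summed to 490 to 537 CPM in controls, 805 and 836 CPM in libraries 1 and 2 labelled Grp78KO and 499 CPM in library 3, the library in which Cav1 was lowest of its group. Of these markers 1 was called higher and none lower, where 18.0% and 18.8% of all tested genes were. Limma-voom gave equal counts, and 1 was lower at an unadjusted p under 0.05 in edgeR. Without library 3 labelled Grp78KO, 8 were higher and 1 lower, where 8548 of 19247 genes were called, 49.6% of them higher. None was called without any 1 of the other 5 libraries, where 8.67% to 14.1% of all genes were higher and 9.73% to 16.2% lower. Pecam1, an endothelial adhesion gene, was not called (log2 fold 0.39, edgeR adjusted p = 0.144). The 12 fibroblast and smooth muscle markers summed to 223 to 576 CPM in controls and 1203 to 1323 CPM in the libraries labelled Grp78KO. Of them 11 were called higher, where 18.0% of all tested genes were. They were 6 without control 2 (8.67% of all genes), and 7 without library 1 labelled Grp78KO (10.1%) or without the filter on low counts (10.5%). The part of either cell type in the values of Cav1 was not tested.

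Emp2 encodes a tetraspan membrane protein of the PMP22 family that is abundant at the AT1 surface, and lies on chromosome 16, 10281749 to 10313968, minus strand. The 3 controls were within 468 to 484 CPM. In the libraries labelled Grp78KO it was at 529, 544 and 460 CPM, the last below all controls. The log2 fold was 0.10 (95% interval -0.16 to 0.37, edgeR adjusted p = 0.499), and without both libraries numbered 3 it was 0.19 (adjusted p = 0.0237). Igfbp2, the gene of a secreted insulin-like growth factor binding protein that marks mature AT1 cells, lies on chromosome 1, 72824503 to 72852474, plus strand. Its CPM was 10.0, 8.27 and 8.71 in controls and 7.58, 8.82 and 12.7 in the libraries labelled Grp78KO. The highest value was that of library 3 labelled Grp78KO and the lowest that of library 1, so that the libraries labelled Grp78KO spanned the controls. The log2 fold was 0.11 (95% interval -0.35 to 0.56, edgeR adjusted p = 0.687) and turned to -0.14 without library 3 labelled Grp78KO (adjusted p = 0.428). Both intervals include no change as well as a rise of the size measured for Cav1.

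**Figure D3:**
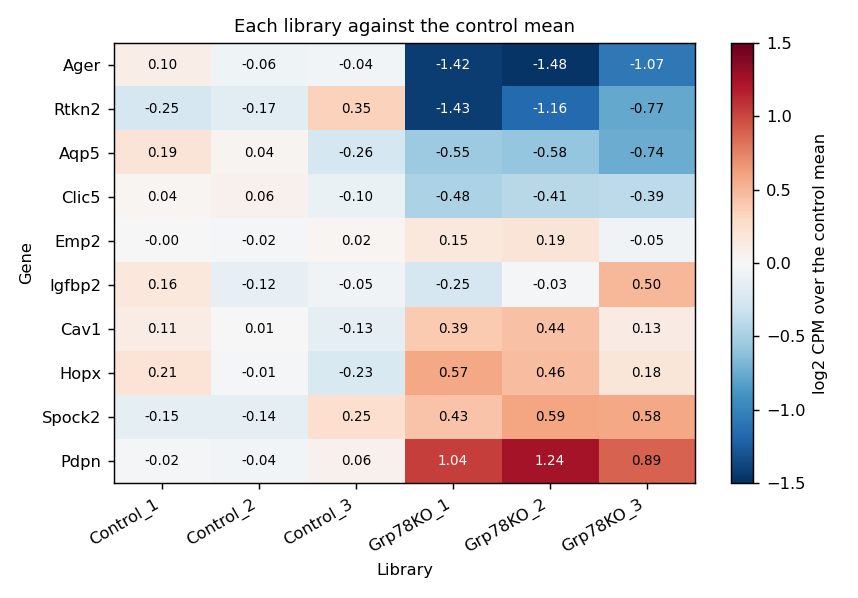
Log2 CPM over the control mean (color, with the value printed) for the 10 AT1 markers, ordered by log2 fold, in each of the 6 libraries. Ager lies at -1.42, -1.48 and -1.07 in libraries 1, 2 and 3 labelled Grp78KO and Pdpn at 1.04, 1.24 and 0.89, and for 7 of the 10 markers library 3 labelled Grp78KO is the nearest of its group to the control mean.

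Among the libraries labelled Grp78KO, library 3 stood nearest to the control mean for 7 of the 10 markers, and for 4 of the 6 that were called. The exceptions were Aqp5 and Spock2, for which library 1 was nearest, and Igfbp2, for which library 2 was. Hspa5 was also lowest of its group there, at 3809 CPM against 9180 and 9262. That library held the most leukocyte RNA as well, with 11 leukocyte markers summing to 96.9 CPM against 28.6 to 31.2 CPM in the other 5. Ptprc, which encodes the CD45 the sort selects against, was at 10.98 CPM there and at 0.964 to 2.07 CPM in the other 5. Between the groups it was not called (log2 fold 1.56, edgeR adjusted p = 0.216). The part of these differences in the AT1 marker values was not tested.

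Of 28 further genes listed as AT1 genes 12 were called lower, 2 higher and 14 not, where 18.8% of all tested genes were lower and 18.0% higher. The median log2 fold of this list was -0.30, beside 0.02 for all tested genes. Leaving out control 2, library 1 labelled Grp78KO or library 2 labelled Grp78KO left 6 lower and 1 higher, leaving out library 3 labelled Grp78KO made 4 higher, and with library-size scaling 5 were lower and 3 higher, with a median of -0.03. That scaling called 33.0% of all genes higher and 7.13% lower. Cldn18, the lung claudin gene, fell from 796 ± 34.1 to 440 ± 33.8 CPM (SD, n = 3; log2 fold -0.85 with SE 0.115, edgeR adjusted p = 0.00198). Lmo7, a gene of an actin and junction adaptor, fell by 1.01 on the log2 scale, the tetraspanin gene Tspan15 by 0.83 and the EGF-repeat gene Egfl6 by 1.44. S100a6, a calcium-binding protein gene, rose from 35.1 ± 7.57 to 70.1 ± 5.56 CPM (SD, n = 3; edgeR adjusted p = 0.00371). These 5 genes were called under each of 15 alternatives, and Egfl6, outside the rule for named genes, was added after its values were seen. The fall of Egfl6 was near the median log2 fold of -1.28 over 12 AT2 markers, and whether Egfl6 marks AT1 cells here was not tested. Which cells of these libraries, AT2 cells among them, made the RNA of this list was not tested. Vegfa, the vascular growth factor gene through which AT1 cells signal to capillaries, had a log2 fold of -0.24 (95% interval -0.55 to 0.08, edgeR adjusted p = 0.209). Akap5, an anchoring protein gene, varied among controls from 2.89 to 8.65 CPM and had a log2 fold of -0.42 (95% interval -1.28 to 0.43, edgeR adjusted p = 0.396).

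**Figure D4:**
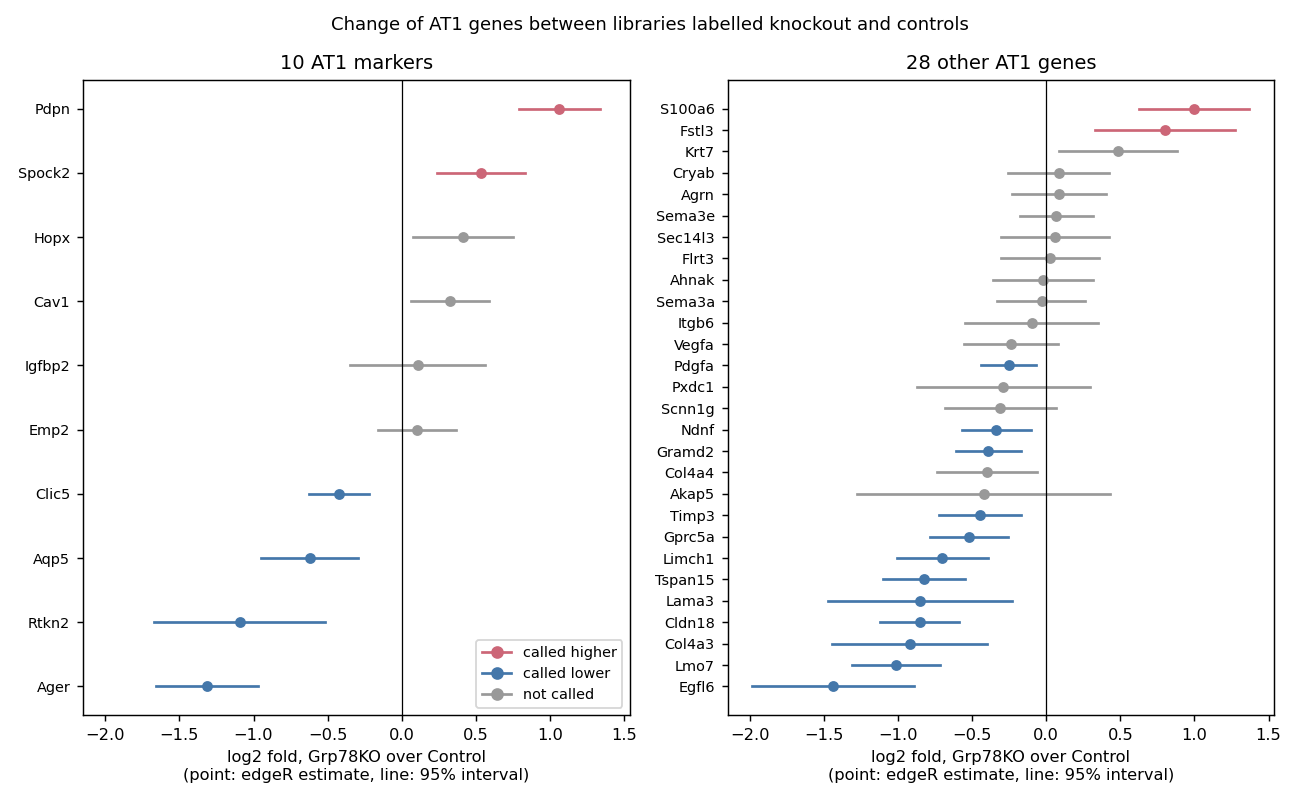
Log2 fold of the libraries labelled Grp78KO over controls (horizontal axis, with its 95% interval from the edgeR fit) for the 10 AT1 markers (left) and 28 other genes listed as AT1 genes (right), in red where called higher, blue where called lower and gray otherwise. Markers run from -1.31 for Ager to 1.06 for Pdpn, and 12 of the other genes are lower and 2 higher.

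Of 20 tested relatives of the markers in the same gene families 7 were higher and 3 lower, with a median log2 fold of 0.21. The 3 lower are near the 18.8% of all tested genes called lower, and 18.0% were called higher. Of these relatives 3 to 5 were higher without any 1 of the controls or of libraries 1 and 2 labelled Grp78KO (8.67% to 14.1% of all genes). They were 11 without both libraries numbered 3 (28.3% of all genes) and 13 with library-size scaling (33.0% of all genes). Beside the fall of Aqp5, the water channel gene Aqp4 rose by a log2 fold of 1.10 (edgeR adjusted p = 0.006). Beside Emp2, its relative Emp3 rose from 2.23 ± 0.56 to 7.78 ± 0.783 CPM (SD, n = 3; log2 fold 1.80). Cav2, the partner of caveolin 1 in caveolae, had a log2 fold of 0.08 (95% interval -0.11 to 0.27, edgeR adjusted p = 0.483). The relative of Rtkn2, Rtkn, fell with it, by 1.36 on the log2 scale. Among the binding proteins related to Igfbp2, Igfbp4 rose by a log2 fold of 1.65, while Igfbp7 and Igfbp6 fell by 1.10 and 0.65 on the log2 scale. Aqp4 and Igfbp4 lie outside the rule for named genes and were added after their values were seen.

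Of 22 genes whose products bind or control the marker proteins, 8 were lower and 2 higher, against 18.8% and 18.0% of all tested genes. Their median log2 fold was -0.18, or 0.08 with library-size scaling, where the median of all genes was 0.27. Of these 10 calls 6 held under each alternative. Gata6, a transcription factor gene of alveolar differentiation, fell from 77.5 ± 2.98 to 50.5 ± 3.99 CPM (SD, n = 3; log2 fold -0.62 with SE 0.0889, edgeR adjusted p = 0.0025). Nkx2-1, the lung epithelial master regulator gene that sustains both alveolar cell types, fell by 0.92 on the log2 scale and was added after its value was seen. Among caveolar genes beside Cav1, Cavin3 rose by a log2 fold of 1.34 and Ehd2 fell by 0.54 on the log2 scale. Of ligands of RAGE, S100b rose by a log2 fold of 1.44 from 1.06 ± 0.224 CPM, a low level. Hmgb1, a more abundant ligand at 329.7 ± 18.7 CPM in controls (SD, n = 3), was not called (log2 fold -0.15, edgeR adjusted p = 0.269). S100a8 and S100a9 were not called either (log2 folds 0.63 and 0.73, edgeR adjusted p = 0.682 and 0.653), but passed with the replicate block (log2 folds 0.91 and 0.87, adjusted p = 0.0323 and 0.0137). The count of higher partners was 5 with the replicate block, with DESeq2 and without library 3 labelled Grp78KO. With library-size scaling 5 were higher and 4 lower, and without both libraries numbered 3, 7 were higher and 13 lower, where 28.3% and 27.7% of all genes were.

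Of 13 genes listed for the transitional state between AT2 and AT1, 9 were higher and 1 lower, against 18.0% and 18.8% of all tested genes. Their median log2 fold was 0.94. The lower gene was Sox4 (log2 fold -0.88, edgeR adjusted p = 0.00808), and Krt18, Sfn and Hbegf were not called. The keratin gene Krt8 rose by a log2 fold of 0.48 (edgeR adjusted p = 0.0317), a call that ended under 5 alternatives. These 5 genes lie outside the rule for named genes and were added after their values were seen. Ndrg1, a stress-responsive gene, rose from 11.2 ± 0.577 to 118 ± 42 CPM and Cdkn1a, the gene of the cell cycle inhibitor p21, from 77.5 ± 10.1 to 401 ± 129 CPM (SD, n = 3 per group). In both, library 3 labelled Grp78KO was the lowest of its group, at 69.6 and 251 CPM. With 1 library left out, 7 or 8 of these genes were higher and 1 lower.

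By Pearson correlation of log2 CPM over the 6 libraries, the genes with patterns most like Ager, among those with a mean of at least 10 CPM, were Sirt1 (r = 0.9999), Ret (0.9995) and Klhl13 (0.9993). Those most like Pdpn were Coro1c (0.9991), Gins2 (0.9985) and Ltbp1 (0.9970). This correlation does not take the size of a change into account. The log2 folds of Sirt1, Ret and Klhl13 were -0.464, -1.515 and -1.213, beside -1.311 for Ager. Those of Coro1c, Gins2 and Ltbp1 were 0.138, 1.469 and 1.272, beside 1.063 for Pdpn. The points are 6 libraries in 2 groups, and of 9586 genes compared 2221 exceeded 0.9 with Ager and 1008 with Pdpn.

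**Figure D5:**
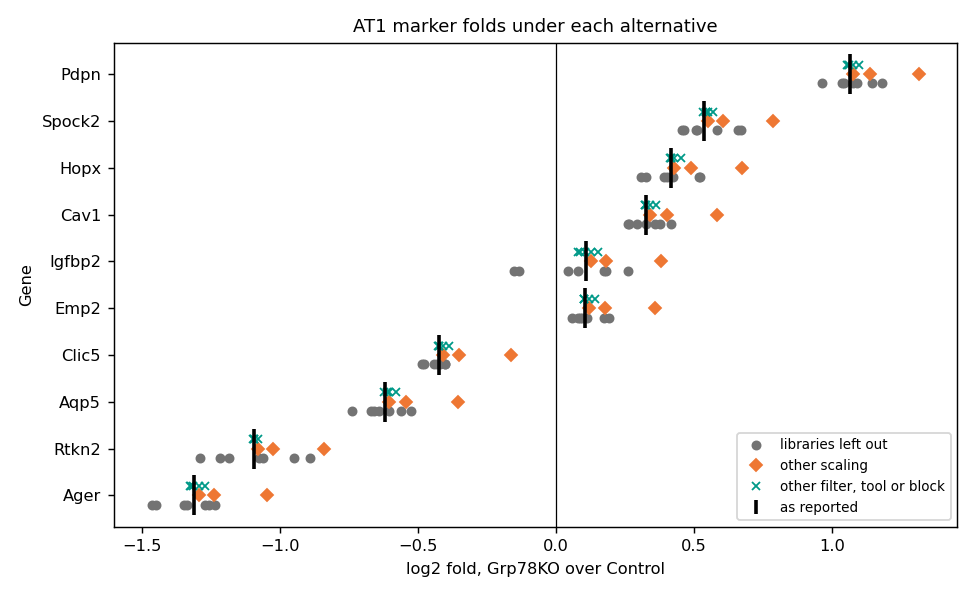
Log2 fold of the 10 AT1 markers (horizontal axis) as reported (black bar) and with libraries left out (gray), other scaling (orange) or another filter, tool or block (green). Ager ranges from -1.46 to -1.05 and Pdpn from 0.96 to 1.31, and Igfbp2 alone has values on both sides of 0.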

How the data were processed

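The authors deposited raw counts per gene symbol for 6 libraries in 1 table (NEBNext Ultra kit, paired reads, per the labels' protocols). The submitters' processing notes name mm10 and edgeR 3.7. For the aligner, counter, annotation and strand setting the entry is: not given in the sources used here. Genes with a count of 2 outnumbered genes with a count of 1 by 1.63 to 1.76 times. The cause was not tested, and counts may not be of independent fragments. Members and gene lists were chosen with earlier results of these data known.

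Counts were analysed with edgeR 4.0.16 under R 4.3.3 (quasi-likelihood F test on group alone, robust dispersions, TMM factors, filterByExpr, Benjamini-Hochberg over 18849 genes). Values are TMM-scaled CPM, the SE is the log2 fold over the square root of F, and intervals are 95%. Named were all 10 markers, Hspa5, from each list up to 4 called genes of lowest adjusted p, 8 set genes and the 3 genes most like Ager and Pdpn. Only part of these is printed. Exon lengths and positions came from GENCODE M21. Deviations from group means correlated at 0.174, 0.147 and 0.281 between same-numbered libraries, all over the 0.1 set as the threshold for pairing. The reported test still used group alone and ignored this pairing. The replicate block, which uses it, is given as an alternative. Control 2 and library 1 labelled Grp78KO correlated at 0.116, so numbers 1 and 2 are barely told apart. The pairing comes from the data, as no label explains the numbers. Alternatives were DESeq2 1.42.0, limma-voom (limma 3.58.1), other scalings and filters, the replicate block, and libraries left out. The edgeR step alone was tested on simulated counts. These had far fewer changed genes than were called here, with equal numbers up and down.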

Additional observations from a re-analysis of the deposited data

How the results depend on the processing

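Over 15 alternatives the calls of Ager and Pdpn kept their direction and significance. The number of all genes called was 6938, from 3706 to 8548 with 1 library left out (3706 without control 2, 3981 and 3779 without libraries 1 and 2 labelled Grp78KO) and 10581 without both libraries numbered 3. Markers called higher numbered 2, where 18.0% of all tested genes were higher. They were 4 with DESeq2 size factors in edgeR, upper-quartile factors, the 5 CPM filter, DESeq2 and the replicate block (18.7% to 23.3% of all genes). They were 5 with library-size scaling (33.0%) and without both libraries numbered 3 (28.3%). With 1 library left out they were 1 to 4. They were 1 without control 2 (8.67%) or library 2 labelled Grp78KO (9.82%). They were 4 without library 3 labelled Grp78KO, where 49.6% of the 8548 genes called were higher. Markers called lower numbered 4 (18.8% of all genes), 3 or 4 with 1 library left out (9.73% to 22.4%), and 2 with library-size scaling (7.13%). With that scaling 82.2% of all calls were higher, against 48.9% with TMM and 59.2% with upper-quartile factors. Under the replicate block the calls of Hopx and Cav1 were added, and it changed no other call among the markers. The log2 fold of Igfbp2 ran from -0.14 (without library 3 labelled Grp78KO) to 0.26 with 1 library left out and was -0.15 without both libraries numbered 3. The Pdpn to Ager difference was 2.21 to 2.59 with 1 library left out and 2.38 with the replicate block. Rtkn2 did not pass the 5 CPM filter and has no value there. Where 1 library is left out, its group has 2. The cause of these shifts was not tested. Rtkn2, at 166 to 546 counts, is the marker whose precision depth limits most.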
